A study of Mus musculus with 20 samples.

Results

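The whole culture change of portal mesenchymal stem cells of the mouse liver was measured as the difference between day 7 myofibroblasts and the uncultured cells, over all genes. The 4 libraries of portal mesenchymal stem cell-derived myofibroblasts after 7 days of culture (PMSC-MF-7d) were set against the 4 libraries of portal mesenchymal stem cells without culture (PMSC, here called fresh), 8 of the 20 libraries of the series. All groups are RNA of liver cells of C57BL/6 mice, with no allele or agent named in the labels. Portal cells after 3 days of culture (PMSC-MF-3d, 4 libraries) served to follow the course in between. Hepatic stellate cells (HSC, 4 libraries) and the myofibroblasts grown from them (HSC-MF-7d, 4 libraries) were compared for 4 genes only. The time of HSC-MF-7d is 7 days by the titles and 3 days by the series description. All 20 libraries entered the count filter, the scaling and the estimate of spread behind every test. Of 24848 listed genes, 14751 had enough counts over the 20 libraries to be tested and 10097 did not. Among the genes not tested, 3185 had a count in the 8 libraries compared and 5838 had none in any library, and tested genes held 99.94% to 99.99% of the counts of each library.

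Portal fibroblasts are the stromal cells around the portal vein and bile ducts. In culture on plastic, as in a scarring liver, fibroblasts and stellate cells can turn into myofibroblasts, cells that assemble smooth muscle actin into contractile bundles, divide and deposit matrix. Cells just taken from tissue are known to carry transcripts of stress and inflammation as well as those of their place in the organ. How these cells were isolated, and the culture conditions, are not given in the sources used here, and the labels do not tie libraries to animals or cultures. P-values therefore measure the spread between libraries of a group, which may be technical.

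Summed expected counts ranged from 22738017 to 26675589 per library in PMSC-MF-7d and from 11810532 to 21438753 in PMSC. The biological coefficient of variation, the spread between replicates beyond counting error, was 19.6% in PMSC-MF-7d and 28.7% in PMSC. Over the 12 portal libraries the leading principal component held 80% of the variance and parted cultured from fresh libraries, and the next held 7.63%. No pair of replicates agreed within sampling noise. Levels below are CPM, read counts relative to library sizes scaled by trimmed means, and log2 fold changes are PMSC-MF-7d over PMSC with their standard error.

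The 4 genes that mark the day 7 cells were all far higher there than in fresh cells. Acta2, the smooth muscle actin of myofibroblasts, had 5611, 6316, 5847 and 6463 CPM in PMSC-MF-7d, against 187, 142, 155 and 275 CPM in PMSC. Its log2 fold change was 5.0 ± 0.22 (edgeR adjusted p = 1e-13). Actg2, the enteric smooth muscle actin, had 713, 910.4, 931 and 1219 CPM in PMSC-MF-7d, against 9.31, 7.77, 5.33 and 13.6 CPM in PMSC (6.69 ± 0.28, adjusted p = 6e-14). Cemip, a secreted protein needed for the breakdown of hyaluronan, had 2167, 1464, 2015 and 2229 CPM in PMSC-MF-7d and 1.73, 2.53, 0.418 and 1.74 CPM in PMSC (10.18 ± 0.42, adjusted p = 4.2e-14). Tll1, a tolloid protease that removes the C-propeptide of procollagens, had 248, 428, 348 and 265 CPM in PMSC-MF-7d and 0.20, 0.821, 0.104 and 0.174 CPM in PMSC (9.84 ± 0.42, adjusted p = 6e-14). All 4 day 7 libraries lay above all 4 fresh libraries for each of these genes, as the label of the cells has it. Of all tested genes, 66.7% had no overlap between these groups in either direction. On the GRCm38.p6 assembly, the one behind mm10, Acta2 spans chromosome 19 from 34240336 to 34255585 and Actg2 chromosome 6 from 83512909 to 83536251. Cemip spans chromosome 7 from 83932857 to 84086693 and Tll1 chromosome 8 from 64013098 to 64206008, exons and introns together. Without PMSC replicate 2, the log2 fold change was 10.78 for Tll1.

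**Figure D1:**
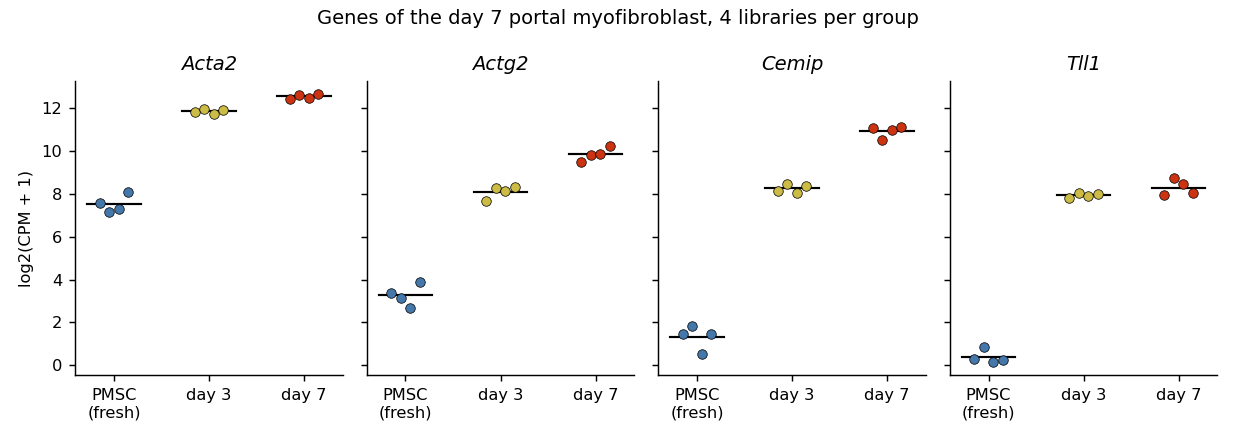
Levels of Acta2, Actg2, Cemip and Tll1 as log2(CPM + 1) in each library of fresh PMSC and of portal cells after 3 and 7 days of culture. Points are libraries (4 per group) and bars the mean of the plotted values. Every cultured library lies above every fresh library for each gene, and Tll1 is about as high on day 3 as on day 7 while Cemip goes on climbing.

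At an adjusted p under 0.05, 11359 of 14751 genes (77%) differed between PMSC-MF-7d and PMSC. Of these, 5613 genes (38.1% of those tested) were higher at day 7 and 5746 (39%) lower. These shares are the background for the day 7 counts of each gene list below. Differences of at least 2-fold were called for 7172 genes (48.6%), 3148 higher (21.3%) and 4024 lower (27.3%). The day 7 and fresh libraries did not overlap for 9839 genes (66.7%). The median log2 fold change over all genes was -0.0019, with quartiles of -1.35 and 0.89. The lowest 5% of genes lay below -5.77 and the highest 5% above 3.14, so the losses reached further than the gains. These values are relative to a trimmed-mean scale. With libraries scaled by their totals alone the median moved to 0.43, with 7380 genes higher and 4237 lower, and by limma on log2(TPM + 1) it was 0.35, with 7463 higher and 3975 lower. In bulk libraries, fewer cells of a type and less RNA per cell cannot be told apart.

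**Figure D2:**
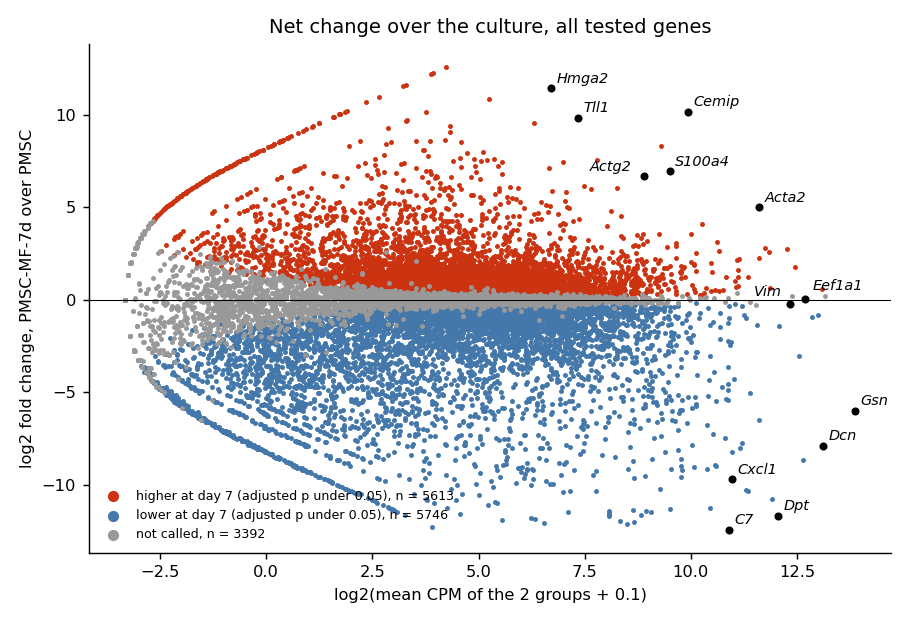
Log2 fold change of PMSC-MF-7d over PMSC for each of the 14751 tested genes against its mean level, on a log2 axis. Colours mark the 5613 genes higher and the 5746 genes lower at day 7; Dpt, C7 and Dcn are among abundant genes far below 0, Cemip, Hmga2 and Tll1 far above it, and Vim and Eef1a1 lie near 0.

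The largest rises among genes with at least 20 CPM came from unlike families. Hmga2, an architectural chromatin protein of embryonic cells, had 171, 264, 238 and 160.0 CPM in PMSC-MF-7d, against 0, 0.0631, 0 and 0.174 CPM in PMSC (11.43 ± 0.44, adjusted p = 1.5e-14). Prl2c2, a placental prolactin family member, had 19.01 to 57.98 CPM in PMSC-MF-7d and no count in PMSC, and was at least 718-fold higher. Prl2c2 and its near-identical neighbour Prl2c3 share reads that RSEM divides between them, so each is uncertain alone. Ptprn, a protein of secretory vesicles, had 143 to 179 CPM in PMSC-MF-7d, against 0 to 0.379 CPM in PMSC (9.53 ± 0.24). Siglecg, a lectin known from B cells, had 2 counts over the PMSC libraries and was 2194-fold (95% interval from counting, 607 to 18114) higher, at 53.6 to 86.6 CPM in PMSC-MF-7d. Lrp2, the endocytic receptor megalin, was 766-fold (95% interval from counting, 262 to 3716) higher, and Crct1, a gene of the epidermal differentiation complex, 1552-fold (95% interval from counting, 279 to 61320.4). Leaving out PMSC replicate 4 gave a log2 fold change of 12.73 for Hmga2.

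The largest falls among genes with at least 20 CPM came from unlike families too. C7, a component of the terminal complement complex, had 1.05, 0.775, 0.293 and 0.636 CPM in PMSC-MF-7d, against 3466, 5989.6, 3019 and 2723 CPM in PMSC (-12.42 ± 0.41, adjusted p = 5.2e-14). Other large falls were of Inmt, a methyltransferase (-12.12 ± 0.30), Ccl19, a chemokine of lymphocyte homing (-12.07 ± 0.47), and Cyp2e1, a cytochrome P450 of xenobiotic metabolism (-11.98 ± 0.62). Lrat, which esterifies retinol for storage (-11.86 ± 0.59), and Slco2b1, an organic anion transporter (-11.77 ± 0.43), fell by similar amounts. Olfml1, an olfactomedin-like secreted protein, had 2 counts over the PMSC-MF-7d libraries and was 5049-fold (95% interval from counting, 1398 to 41694) lower. Adjusted p-values of these genes were at or below 1.2e-12. Cyp2e1 is also 1 of the 24 hepatocyte transcripts, of which 23 were lower and whose sum was 147.83 to 210.48 TPM in PMSC-MF-7d and 1216.04 to 2317.28 TPM in PMSC. In the fit of the 12 portal libraries alone, 16 hepatocyte transcripts were lower. Lrat is also 1 of the 26 stellate cell markers, of which 24 were lower. The part of RNA from such cells in these falls was not tested. Once PMSC-MF-7d replicate 1 was left out, the log2 fold change came to -12.57 for Cyp2e1, -13.05 for Lrat and -12.96 for Slco2b1.

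Transcript abundances per length (TPM), which compare genes, show which changes weighed most in the messenger pool. Among the largest gains, 7 genes together took 4.43% to 5.06% of all TPM in PMSC-MF-7d, against 0.38% to 0.573% in PMSC. These were the calcium-binding genes S100a4 and S100a6, the actin genes Actb and Acta2, the galectin gene Lgals1, the actin-binding gene Tagln and the matrix gene Fbln2. S100a4 stood at 10861, 11856, 10856 and 12839 TPM in PMSC-MF-7d and at 76.2, 77.7, 64.3 and 53.8 TPM in PMSC, with a log2 fold change of 6.95 ± 0.28 (adjusted p = 2.7e-14). The 8 genes with the largest losses took 0.0762% to 0.0965% of TPM in PMSC-MF-7d, against 8.28% to 9.28% in PMSC. They were Gsn, which severs actin filaments, the matrix genes Dcn and Dpt, the lipid carrier gene Apoe, the chemokine gene Cxcl1, the metallothionein genes Mt1 and Mt2, and the complement C1 inhibitor gene Serping1. Gsn stood at 438, 471, 432 and 402 TPM in PMSC-MF-7d, against 17498, 22025, 20813 and 18583 TPM in PMSC (-6.0 ± 0.17, adjusted p = 3.5e-16). Decorin (Dcn) stood at 195, 60.9, 74.4 and 88.1 TPM in PMSC-MF-7d, against 17673, 17929, 16424 and 19261 TPM in PMSC (-7.88 ± 0.31, adjusted p = 1.8e-14). Apoe had 5.45 to 17.9 TPM in PMSC-MF-7d and 9628 to 13668 TPM in PMSC. Dpt had 1.6 to 7.8 TPM in PMSC-MF-7d and 8302 to 10731 TPM in PMSC. The day 7 and fresh libraries did not overlap for any of these genes, which were picked for large changes, nor for 66.7% of all tested genes. Actin genes resemble each other, as do Mt1 and Mt2, and share reads that RSEM divides.

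**Figure D3:**
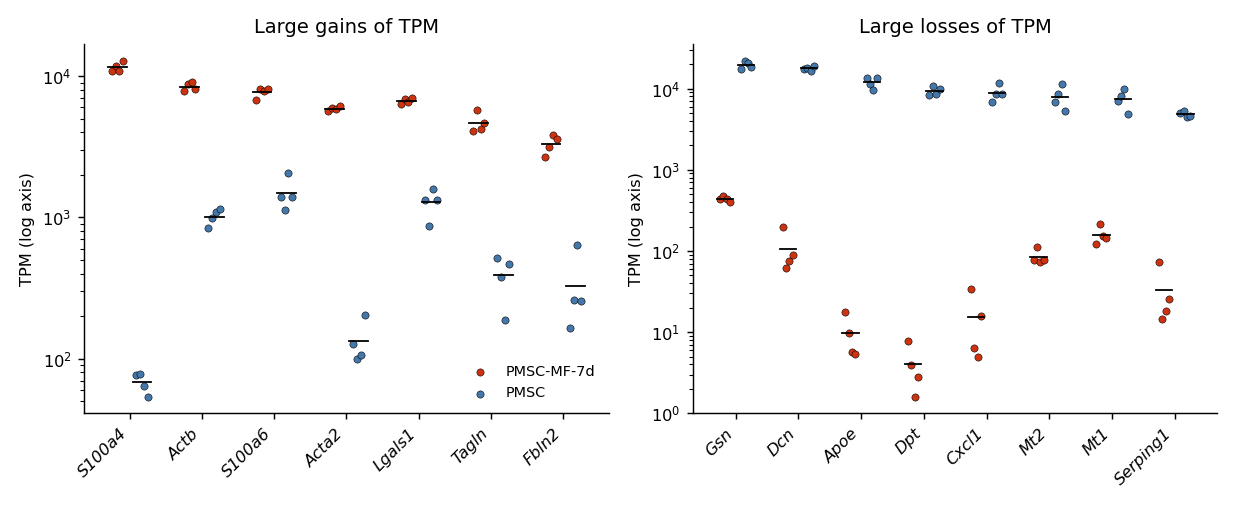
TPM of 7 genes with large gains and of the 8 genes with the largest losses, on a log axis, in the 4 PMSC-MF-7d libraries (left of each pair) and the 4 PMSC libraries. Bars are means; S100a4 and Acta2 show the widest gaps among the gains, and Dpt and Apoe among the losses.

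The actin machinery was built up unevenly. Of the smooth muscle contractile proteins, 16 of 25 tested members were higher and 6 lower, with a median log2 fold change of 1.7, beside 38.1% higher and 39% lower over all genes. Cnn1, calponin, had 392, 412, 365 and 424 CPM in PMSC-MF-7d, against 4.79, 3.6, 8.04 and 8.66 CPM in PMSC (6.0 ± 0.26, adjusted p = 9.5e-14). Tropomyosin genes Tpm2 (3.58 ± 0.11) and Tpm1 (2.55 ± 0.11), the cytoskeletal gene Ldb3 (4.28 ± 0.39) and skeletal actin Acta1 (4.39 ± 0.37) rose, and smooth muscle myosin Myh11 rose by 1.7 ± 0.27. Against them, desmin (Des, -3.21 ± 0.20), the intermediate filament gene Synm (-3.52 ± 0.33) and the integrin gene Itga8 (-4.06 ± 0.28) fell. Myocd, the coactivator of smooth muscle genes, had 1.19 to 3.96 CPM in PMSC-MF-7d and 3.26 to 10.6 CPM in PMSC, and its lower call (-0.98 ± 0.43, adjusted p = 0.05) was lost under several alternatives, among them leaving out PMSC replicate 4 (-0.39). A CArG box, the binding motif of serum response factor, stood in 5 of 23 promoters of these genes (21.7%), against 1.63% of all 32851 promoters. The TATA box (TATAAA) stood in 13% of them, against 13.6%.

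Focal adhesion genes had 21 of 28 tested members higher and 4 lower (median 0.99). Tes, a LIM protein of adhesions, had 82.2 to 113 CPM in PMSC-MF-7d and 0 to 2.0 CPM in PMSC (6.8 ± 0.32, adjusted p = 2.1e-13). Alpha-actinin (Actn1) rose by 3.55 ± 0.14 and filamin (Flna) by 2.25 ± 0.09. The integrin genes Itga7 (-3.07 ± 0.30) and Itga11 (-2.32 ± 0.29), Itgb5 (-1.26 ± 0.11) and paxillin (Pxn, -1.43 ± 0.13) were the 4 lower members. Target genes of the coactivator YAP, which responds to mechanical load, and of serum response factor (SRF) had 15 of 21 higher and 5 lower (median 1.13), or 3 lower with library totals and by limma on log2(TPM + 1). Ankrd1 had 803, 1806, 1296 and 1113 CPM in PMSC-MF-7d, against 1.66, 6.44, 1.15 and 5.64 CPM in PMSC (8.33 ± 0.53, adjusted p = 2.3e-11). Ajuba rose by 4.66 ± 0.18, Ctgf by 1.6 ± 0.21 and Cyr61 by 1.21 ± 0.18, while Gadd45b fell (-5.95 ± 0.17). The coactivator genes themselves were lower, Yap1 (-0.39 ± 0.11) less than Wwtr1, which encodes TAZ (-1.15 ± 0.08); with library totals Yap1 stood at 0.07. Without PMSC replicate 1, the log2 fold change was 7.78 for Tes.

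Cell division genes rose together. All 32 tested mitosis genes were higher at day 7, as in no other of the 51 lists, with a median log2 fold change of 5.32. Kif2c, a kinesin that frees misattached chromosomes, had 45.9, 36.3, 38.5 and 40.05 CPM in PMSC-MF-7d, against 0.0665, 0.126, 0.104 and 0 CPM in PMSC (9.05 ± 0.35, adjusted p = 1.5e-14). Hmmr, a spindle protein that also binds hyaluronan, had 77.7, 70.6, 71.04 and 71.5 CPM in PMSC-MF-7d, against 0.0665, 0.442, 0.522 and 0.523 CPM in PMSC (7.55 ± 0.30, adjusted p = 3e-14). Bub1, a spindle checkpoint kinase (8.55 ± 0.35), and cyclin B1 (Ccnb1, 7.49 ± 0.37) behaved alike. No fresh library reached any day 7 library for these 4 genes, beside 66.7% of all tested genes without overlap in either direction. Of the DNA replication and G1/S genes, 31 of 34 tested members were higher and 2 lower (median 2.17). Gins2, a subunit of the replicative helicase (5.42 ± 0.29), E2f8 (5.35 ± 0.29) and Rrm2, a ribonucleotide reductase subunit (4.69 ± 0.14), rose. The 2 lower members were Pcna, the polymerase clamp (-0.95 ± 0.08), and Slbp, which processes histone messengers (-0.86 ± 0.09). On day 3 Kif2c averaged 46.00 CPM and Hmmr 87.1 CPM. Between PMSC-MF-7d and PMSC-MF-3d, where 18.6% of all genes were higher and 17.4% lower, no mitosis gene was higher and 2 of 32 were lower (median -0.089). Of the G1/S genes none was higher and 16 of 34 were lower than on day 3 (median -0.44). Leaving out PMSC replicate 2 gave a log2 fold change of 9.18 for Bub1, 8.71 for Ccnb1 and 6.01 for Gins2.

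The cell cycle homology region, TTTGAA on either strand, is the motif through which the DREAM and MuvB complexes control mitosis genes. It stood in 22 of 29 promoters of the mitosis genes (75.9%) that RefSeq gave for 27 of the 32 members, against 17.9% of 32851 promoters of the GRCm38.p6 assembly. The CCAAT box stood in 79.3% of them, against 37.4%. Promoters here are 300 bases long, 250 before and 50 after the start, and 11 pairs of a motif and a list were searched on both strands. An E2F site (TTTCCCGC) stood in 5 of 31 promoters of the DNA replication and G1/S genes (16.1%), against 1.07% of all promoters. The promoters of Kif2c (chr4:117178723-117179022, minus strand) and Hmmr (chr11:40733388-40733687, minus strand) are printed because these genes were among the largest rises of the list and hold a match. For a gene with several annotated starts, the promoter with the most matches was the one printed, here and below. Capitals mark the motif, which reads TTCAAA where it lies on the other strand.
Kif2c: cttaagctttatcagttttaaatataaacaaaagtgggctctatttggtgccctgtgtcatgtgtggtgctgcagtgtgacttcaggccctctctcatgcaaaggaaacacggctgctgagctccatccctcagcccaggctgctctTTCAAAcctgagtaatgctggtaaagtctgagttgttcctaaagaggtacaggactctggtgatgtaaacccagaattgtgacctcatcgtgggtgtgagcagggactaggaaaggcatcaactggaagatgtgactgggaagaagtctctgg
Hmmr: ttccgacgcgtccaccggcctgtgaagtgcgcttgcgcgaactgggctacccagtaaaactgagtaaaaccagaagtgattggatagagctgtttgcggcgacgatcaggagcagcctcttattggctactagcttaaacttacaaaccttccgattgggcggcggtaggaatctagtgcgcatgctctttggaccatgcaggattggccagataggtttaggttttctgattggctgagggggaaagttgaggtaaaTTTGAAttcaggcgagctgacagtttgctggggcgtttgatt

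Inhibitors of the cycle were split. Among cell cycle inhibitors and p53 targets, 13 of 25 tested members were higher and 9 lower (median 0.44), beside 38.1% higher and 39% lower over all genes. Cdkn2a, which encodes p16 and p19ARF, had 10.3, 10.3, 9.97 and 10.9 CPM in PMSC-MF-7d, against 0.865, 0.0631, 0.313 and 0.0581 CPM in PMSC (5.0 ± 0.52, adjusted p = 3.1e-08). Its neighbour Cdkn2b, encoding p15, had 38.4, 22.2, 26.8 and 30.3 CPM in PMSC-MF-7d, against 0.266, 2.02, 0.313 and 1.1 CPM in PMSC (4.9 ± 0.36, adjusted p = 1.9e-10). Both were still low on day 3, at 0.992 and 5.14 CPM on average. Cdkn1c, encoding p57, fell (-6.36 ± 0.29), as did Gas1, a growth arrest gene (-4.55 ± 0.51), and Cdkn1a, encoding p21, was lower by a small amount (-0.54 ± 0.11, adjusted p = 0.00012) that was not called with library totals (-0.081). P53 targets were split, with Ccng1 (3.54 ± 0.11), Phlda3 (3.05 ± 0.14) and Bax (2.5 ± 0.10) higher and Gadd45a (-3.39 ± 0.20) and Btg2 (-3.71 ± 0.21) lower. Once PMSC replicate 1 was left out, the log2 fold change came to 6.36 for Cdkn2a. With PMSC replicate 2 left out it was 5.51 for Cdkn2b. Without PMSC-MF-7d replicate 1 it was -5.81 for Gas1.

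Genes of amino acid synthesis and transport, many of them targets of the transcription factor ATF4, had 21 of 25 members higher and 4 lower (median 2.02). Asns, asparagine synthetase, had 147, 149, 155 and 181 CPM in PMSC-MF-7d, against 5.32, 9.16, 10.9 and 6.1 CPM in PMSC (4.35 ± 0.32, adjusted p = 1.8e-10). Psat1 of serine synthesis had 207, 218, 226 and 245 CPM in PMSC-MF-7d and 10.2, 7.51, 7.42 and 10.3 CPM in PMSC (4.65 ± 0.22, adjusted p = 3.3e-13). Chac1, which degrades glutathione, rose by 4.83 ± 0.39, Phgdh by 3.77 ± 0.16, and the mitochondrial folate enzyme genes Aldh1l2 and Mthfd2 by 4.12 ± 0.22 and 3.27 ± 0.11. The lower members were Cbs (-4.45 ± 0.51) and the carriers Slc1a5 (-2.44 ± 0.17), Slc38a2 (-1.48 ± 0.11) and Slc3a2 (-1.4 ± 0.13). Atf4 itself was lower, at 204 to 225 CPM in PMSC-MF-7d and 663 to 846 CPM in PMSC (-1.82 ± 0.08, adjusted p = 1.5e-13). The C/EBP-ATF response element, searched as TGATGNAA on both strands, stood in 6 of 23 promoters of the list (26.1%), against 3.97% of all promoters. Those of Asns (chr6:7693160-7693459, minus strand) and Chac1 (chr2:119350992-119351291, plus strand) are shown with the match in capitals, on the other strand in Chac1, because both genes were among the largest rises of the list.
Asns: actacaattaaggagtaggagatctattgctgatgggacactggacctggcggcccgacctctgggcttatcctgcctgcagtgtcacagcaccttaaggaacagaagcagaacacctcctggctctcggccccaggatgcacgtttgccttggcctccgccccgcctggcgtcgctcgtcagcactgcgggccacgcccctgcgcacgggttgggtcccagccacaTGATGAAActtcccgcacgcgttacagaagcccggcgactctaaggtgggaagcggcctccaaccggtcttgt
Chac1: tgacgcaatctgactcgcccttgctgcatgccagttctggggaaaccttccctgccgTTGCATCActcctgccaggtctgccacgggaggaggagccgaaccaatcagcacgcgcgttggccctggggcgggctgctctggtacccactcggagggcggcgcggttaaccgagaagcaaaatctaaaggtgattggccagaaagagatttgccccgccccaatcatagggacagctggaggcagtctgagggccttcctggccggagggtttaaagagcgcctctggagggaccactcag

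Genes of energy metabolism had smaller median changes than those of amino acid metabolism. Respiratory chain and ATP synthase subunits had 20 of 30 members higher and 4 lower at a median of 0.44, and 23 of the 30 lay within 2-fold of fresh cells by their interval. Cox5a had the largest rise (1.57 ± 0.16), and Atp5b, the catalytic subunit of ATP synthase, had 886 to 1084 CPM in PMSC-MF-7d and 458 to 522 CPM in PMSC (1.02 ± 0.07). With library totals as the scale 1 member was lower, and none by limma on log2(TPM + 1). In glycolysis, 11 of 22 tested members were higher and 9 lower (median 0.09), beside 38.1% higher and 39% lower over all genes. Eno1, enolase, had 526 to 666 CPM in PMSC-MF-7d and 35.9 to 73.7 CPM in PMSC (3.46 ± 0.18), and Pgk1, Pkm and Pgam1 rose by 2.27, 2.07 and 1.98. Hk2, a hexokinase, fell (-4.38 ± 0.24), and the lactate carriers Slc16a1 (-2.87 ± 0.14) and Slc16a3 (-2.37 ± 0.21) fell with it. Cholesterol synthesis genes had 15 of 26 higher and 3 lower (median 0.55), led by squalene epoxidase Sqle (3.17 ± 0.39). The sterol regulatory element, searched as ATCACNCCAC, stood in 0 of 23 promoters of the list and 0.234% of all promoters. Lysosome and autophagy genes had 3 of 24 higher and 17 lower (median -0.83), with the glycosidase gene Gla (-4.1 ± 0.20) and the autophagy receptor gene Sqstm1 (-2.27 ± 0.09) among the lower ones. The higher lysosome members numbered 6 by limma on log2(TPM + 1).

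Fat and retinoid storage genes had 7 of 26 members higher and 17 lower, at a median of -2.17, or -1.93 with members at 0 in a group set at their bound. Rbp4, the retinol carrier of blood, fell (-9.35 ± 0.72), as did the fatty acid receptor gene Cd36, which was 313-fold (95% interval from counting, 107 to 1516) lower. Pparg, the regulator of fat cell genes, went the other way (2.89 ± 0.38), along with Fabp5 (2.1 ± 0.16) and the droplet coat gene Plin2 (1.27 ± 0.12). Clock genes had no member higher and 14 of 18 lower (median -1.82), among them Bhlhe40 (-5.24 ± 0.18), Hlf (-6.88 ± 0.48) and Rora (-3.53 ± 0.14); Dbp was not called (0.069 ± 0.55, adjusted p = 0.92). The hour of collection is not in the labels, so time of day and culture cannot be told apart for the clock genes.

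Matrix genes moved in several directions at once, and the day 7 cells were not uniformly richer in collagen messengers. Fibrillar and associated collagens with fibronectin had 8 of 24 members higher and 13 lower (median -0.9). Col1a1, the main chain of type I collagen, had 10696, 7948, 9860.4 and 10746 CPM in PMSC-MF-7d, against 8965, 7634, 6979 and 10074 CPM in PMSC, and was not called (0.22 ± 0.30, adjusted p = 0.51); its groups overlapped. With library totals it was higher (0.68) and passed the threshold. On day 3 it averaged 4415 CPM. Its partner chain gene Col1a2 (-0.83 ± 0.14) and Col3a1 (-3.03 ± 0.20) were lower. Among the 8 higher members were Col11a1 (5.87 ± 0.33), Col8a1 (2.91 ± 0.38), Col12a1 (2.25 ± 0.39) and Col2a1, the main collagen of cartilage, with 42.9, 5.02, 41.5 and 55.95 CPM in PMSC-MF-7d and 0.865, 0.695, 0.104 and 0.407 CPM in PMSC (6.04 ± 0.81, adjusted p = 3.2e-06). Fibronectin (Fn1) rose by 1.78 ± 0.15. The largest falls were of the type VI chains Col6a6, at 0.0367 to 0.434 CPM in PMSC-MF-7d and 327 to 672 CPM in PMSC (-11.53 ± 0.39), and Col6a5 (-11.49 ± 0.51). Col14a1 (-5.03 ± 0.28) and Col6a1 (-3.63 ± 0.30) were lower too. Without PMSC replicate 1, the log2 fold change was 6.48 for Col11a1. Without PMSC-MF-7d replicate 1 it was -12.47 for Col6a6.

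Enzymes that fold, cut and crosslink collagen had 11 of 27 higher and 12 lower (median -0.02), beside 38.1% higher and 39% lower over all genes. The prolyl hydroxylase gene P4ha3 (5.21 ± 0.31) and lysyl oxidase Lox (2.17 ± 0.30) rose, while Adamts2, which removes the N-propeptide of procollagen, had 208, 62.02, 107 and 153 CPM in PMSC-MF-7d, against 2515, 2813, 2141 and 3079 CPM in PMSC (-4.31 ± 0.29, adjusted p = 5.1e-11). Its C-propeptide counterpart Tll1 rose, as given above. Elastic fibre genes had 2 of 20 higher and 13 lower (median -2.12). Fbln2 was 1 of the 2, while its relative Fbln1 had 16.8, 9.83, 12.2 and 13.5 CPM in PMSC-MF-7d and 3851, 4367, 4078 and 3589 CPM in PMSC (-8.25 ± 0.17, adjusted p = 1.4e-17). Mfap4 (-9.15 ± 0.43), Adamtsl2 (-10.2 ± 0.43), Ltbp4 (-6.48 ± 0.24) and elastin itself (Eln, -3.24 ± 0.67) fell too. Basement membrane components had 5 of 23 higher and 13 lower (median -0.86), with the laminin genes Lamc3 (-6.73 ± 0.54) and Lama2 (-3.22 ± 0.17) and the collagen genes Col4a3 and Col4a4 (-6.36 ± 0.38 and -6.11 ± 0.29) among those down and Nid1 up (1.26 ± 0.14). By limma on log2(TPM + 1), 8 basement membrane and 5 elastic fibre genes were higher. Leaving out PMSC-MF-7d replicate 1 gave a log2 fold change of -9.76 for Mfap4.

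Small leucine-rich and large proteoglycans had 3 of 19 higher and 14 lower (median -2.43). Lumican (Lum) had 17.99, 2.24, 1.72 and 2.69 CPM in PMSC-MF-7d, against 3133, 3239, 2499 and 3366 CPM in PMSC (-8.95 ± 0.64, adjusted p = 1.3e-10), and replicate 1 was the highest of the day 7 libraries for Lum as for Dcn. Glypican 3 (Gpc3, -7.37 ± 0.38), which binds growth factors, and Omd (-7.3 ± 0.55) fell also. Matricellular glycoproteins had 6 of 26 higher and 15 lower (median -2.17). Spon1 (-11.37 ± 0.38), Sparcl1 (-9.55 ± 0.54) and Tgfbi (-9.2 ± 0.57) fell to low levels, and Vtn, vitronectin, was 2668-fold (95% interval from counting, 913 to 12938) lower. Wisp1 rose by 4.37 ± 0.19. Periostin (Postn), often used as a mark of activated fibroblasts, had 366 to 761 CPM in PMSC-MF-7d and 419 to 566 CPM in PMSC and was not called (0.16 ± 0.18, adjusted p = 0.45), although it passed with library totals (0.61). Once PMSC-MF-7d replicate 1 was left out, the log2 fold change came to -10.4 for Lum, -8.12 for Omd, -12.09 for Spon1 and -10.57 for Tgfbi.

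Matrix proteases and their inhibitors had 8 of 27 higher and 16 lower (median -1.34). Mmp3, stromelysin, had 1.59, 2.94, 2.02 and 1.02 CPM in PMSC-MF-7d, against 572, 987, 728 and 894 CPM in PMSC (-8.72 ± 0.47, adjusted p = 2.2e-12). Adamts4 had 16.8 to 22.6 CPM in PMSC-MF-7d and 2405 to 5409.5 CPM in PMSC (-7.46 ± 0.26), and Adamts8 and Adamts15 fell as well (-6.99 ± 0.30 and -6.6 ± 0.60). Mmp10 (5.79 ± 0.75), Mmp13 (5.01 ± 1.03) and the inhibitor gene Timp1 (2.22 ± 0.29) rose. In the hyaluronan list, 5 of 16 tested members were higher and 9 lower (median -2.68). The synthase gene Has1 had 1.59, 1.63, 1.28 and 0.848 CPM in PMSC-MF-7d, against 835, 821, 1826 and 386 CPM in PMSC (-9.5 ± 0.49, adjusted p = 1e-12), and Has2 was not called (-0.77 ± 0.37, adjusted p = 0.066). PMSC replicate 3 decided that value: without it the change of Has2 was 0.13, and without PMSC replicate 2 it was -1.03 and called. Tnfaip6, which binds hyaluronan in inflamed tissue, fell (-8.22 ± 0.28) and the receptor gene Cd44 rose (1.1 ± 0.28), so that Cemip and the synthase Has1 stood on opposite sides. Without PMSC replicate 1, the log2 fold change was 7.01 for Mmp10. Without PMSC replicate 2 it was 5.84 for Mmp13. It was -8.66 for Adamts15 without PMSC-MF-7d replicate 1.

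**Figure D4:**
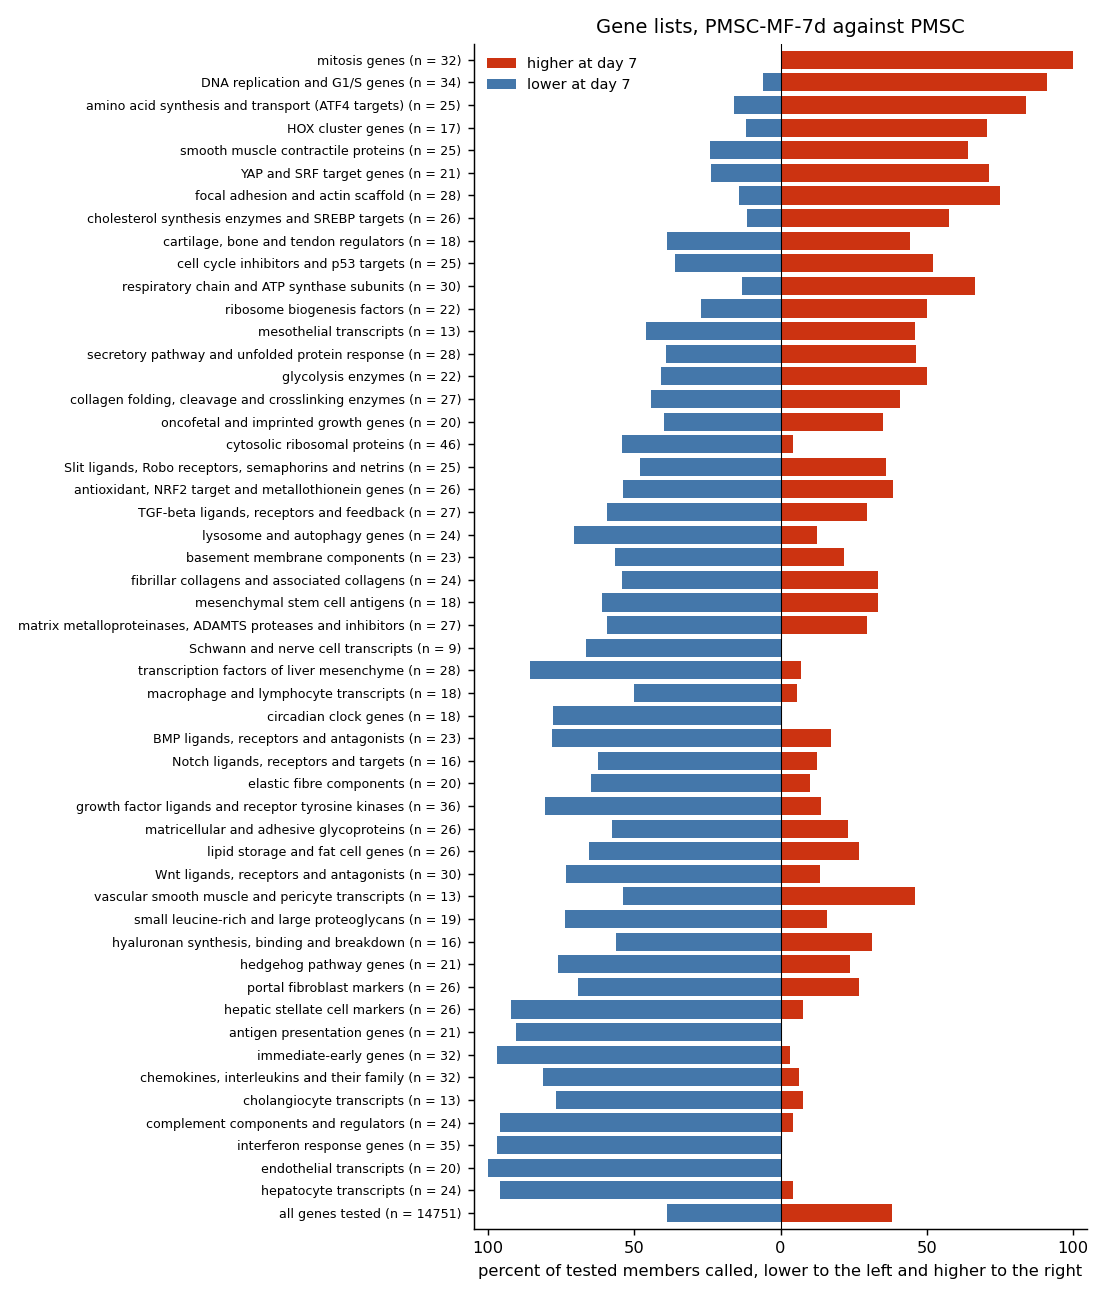
Percent of the tested members of each gene list that were higher (to the right) or lower (to the left) in PMSC-MF-7d than in PMSC at an adjusted p under 0.05, sorted by the median log2 fold change, with all tested genes in the bottom row. Mitosis genes are all higher, endothelial transcripts all lower, and interferon, complement and immediate-early genes almost all lower.

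Stress and inflammatory transcripts were far lower at day 7 than in fresh cells. Of the immediate-early genes, 1 of 32 tested members was higher and 31 lower (median -4.04). Fosb, an AP-1 subunit, had 4.6, 5.71, 3.23 and 2.62 CPM in PMSC-MF-7d, against 6963, 5932, 3587 and 4492 CPM in PMSC (-10.35 ± 0.39, adjusted p = 1.3e-14). Nr4a3, a nuclear receptor (-8.97 ± 0.33), Atf3 (-7.95 ± 0.34) and Socs3, a brake on cytokine signalling (-7.86 ± 0.29), fell by more than their median. Klf6 was the higher member (0.3 ± 0.11, adjusted p = 0.019), a call that was lost without PMSC replicate 2 (0.25) and by DESeq2 (0.2). A cyclic AMP response element (TGACGTCA) stood in 9.09% of the promoters of this list and 1.79% of all promoters, and the AP-1 letters TGANTCA stood in none, against 7.81% of all promoters.

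The interferon response list had no member higher and 34 of 35 lower (median -5.06). Cxcl10, a chemokine induced by interferon gamma, had 0.181, 1.1, 1.25 and 0.389 CPM in PMSC-MF-7d, against 593, 443, 371 and 341 CPM in PMSC (-9.24 ± 0.40, adjusted p = 8.3e-14). The GTPase gene Gbp5 had 0.0724, 0.245, 0.477 and 0.0353 CPM in PMSC-MF-7d, against 90.4, 133, 89.4 and 88.5 CPM in PMSC (-8.9 ± 0.36, adjusted p = 2.9e-14). Irf8, an interferon regulatory factor (-9.04 ± 0.38), and Iigp1 (-10.35 ± 0.38) fell with them. Ifit2 was the member not called (-0.089 ± 0.17, adjusted p = 0.63), and with library totals it was higher (0.38). The interferon-stimulated response element, searched as GAAANNGAAA on both strands, stood in 16 of 32 promoters of this list (50%), against 3.44% of all promoters. Those of Cxcl10 (chr5:92348840-92349139, minus strand) and Gbp5 (chr3:142496684-142496983, plus strand) are printed for their large falls, with the match in capitals, on the other strand in Gbp5. Leaving out PMSC-MF-7d replicate 3 gave a log2 fold change of -9.7 for Gbp5.
Cxcl10: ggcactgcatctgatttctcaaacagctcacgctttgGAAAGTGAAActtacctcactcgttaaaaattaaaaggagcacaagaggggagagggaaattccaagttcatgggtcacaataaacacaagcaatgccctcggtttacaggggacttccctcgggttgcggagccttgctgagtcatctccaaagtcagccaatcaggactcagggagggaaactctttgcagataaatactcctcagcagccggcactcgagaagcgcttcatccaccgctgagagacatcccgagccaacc
Gbp5: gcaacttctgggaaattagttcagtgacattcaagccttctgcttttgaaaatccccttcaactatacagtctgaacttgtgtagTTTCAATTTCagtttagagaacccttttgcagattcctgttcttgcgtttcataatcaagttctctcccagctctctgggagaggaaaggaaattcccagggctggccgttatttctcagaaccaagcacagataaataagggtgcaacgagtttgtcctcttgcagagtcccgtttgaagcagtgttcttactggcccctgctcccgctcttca

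Antigen presentation genes had none higher and 19 of 21 lower (median -3.67). The class I gene H2-Q4 fell to 2.0 to 4.34 CPM in PMSC-MF-7d, against 383 to 757 CPM in PMSC (-7.52 ± 0.27), and the immunoproteasome gene Psmb8 fell (-5.04 ± 0.23), as did B2m, the class I light chain (-2.8 ± 0.09). H2 genes resemble each other and divide shared reads. Complement components and regulators had 1 of 24 higher and 23 lower, at a median of -5.03, or -3.87 with members at 0 in a group set at their bound. In the fit of the 12 portal libraries alone, 16 complement genes were lower. C3, the central component, had 74.3, 12.5, 13.97 and 28.2 CPM in PMSC-MF-7d, against 13712, 16206, 10955 and 10337 CPM in PMSC (-8.63 ± 0.78, adjusted p = 4.9e-09). C4b (-10.29 ± 0.72) and factor B (Cfb, -9.07 ± 0.62) fell, C6 was 2895-fold (95% interval from counting, 519.5 to 114329) lower, and the receptor gene C3ar1 was 115-fold (95% interval from counting, 39.4 to 559) higher. Once PMSC-MF-7d replicate 1 was left out, the log2 fold change came to -9.43 for C3 and -11.52 for C4b.

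Chemokines and interleukins had 2 of 32 higher and 26 lower, at a median of -4.66, or -4.53 with members at 0 set at their bound. Cxcl1 had 10.5, 2.08, 1.54 and 5.2 CPM in PMSC-MF-7d, against 3146, 3857, 5329 and 3623 CPM in PMSC (-9.68 ± 0.66, adjusted p = 6.8e-11). Il6 had 11.4, 21.2, 17.01 and 18.6 CPM in PMSC-MF-7d and 1459.8, 1634, 2153 and 1014 CPM in PMSC (-6.52 ± 0.36, adjusted p = 3.1e-12). Cxcl2 (-11.45 ± 0.60) and Ccl11, eotaxin (-10.38 ± 0.96), fell, and Cxcl13 was at least 684-fold lower with 51.9, 2.46, 21.4 and 0.407 CPM in the 4 PMSC libraries, a wide spread. The 2 higher members were Csf1, the growth factor of macrophages (2.21 ± 0.18), and Ccl17, which was 59.5-fold (95% interval from counting, 10.7 to 2349) higher. Without PMSC replicate 3, the log2 fold change was -9.64 for Ccl11. Without PMSC-MF-7d replicate 1 it was -10.37 for Cxcl1. It was -11.6 for Ccl11 without PMSC-MF-7d replicate 4.

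Transcripts of hepatocytes, endothelium, leukocytes, cholangiocytes and Schwann cells were more often lower than higher. Summed over 24 hepatocyte transcripts, TPM ranged from 147.83 to 210.48 in PMSC-MF-7d and from 1216.04 to 2317.28 in PMSC. Of these, 1 member was higher and 23 lower, and 3 had no count in PMSC-MF-7d. Albumin (Alb) had 0.109, 1.3, 0.0367 and 0.0707 CPM in PMSC-MF-7d, against 60.1, 132, 31.9 and 37.9 CPM in PMSC (-7.49 ± 0.78, adjusted p = 3.9e-08); the higher member was Ass1, a urea cycle enzyme also used elsewhere (3.57 ± 0.58). For 20 endothelial transcripts the sums were 5.4 to 6.51 TPM in PMSC-MF-7d and 72.35 to 240.92 TPM in PMSC, with all 20 lower and 5 at 0 in PMSC-MF-7d. The endothelial adhesion gene Pecam1 had 0, 0.245, 0.147 and 0.247 CPM in PMSC-MF-7d, against 37.4, 16.9, 9.4 and 5.87 CPM in PMSC (-6.74 ± 0.58). The 26 macrophage and lymphocyte transcripts listed summed to 21.53 to 26.91 TPM in PMSC-MF-7d and 66.59 to 86.23 TPM in PMSC, with 11 of 26 at 0 in PMSC and 1 of 18 tested members higher and 9 lower. The 15 cholangiocyte transcripts summed to 26.83 to 40.22 TPM in PMSC-MF-7d and 38.88 to 104.23 TPM in PMSC, with 1 of 13 tested members higher and 10 lower. In the fit of the 12 portal libraries alone, fewer were lower: 16 hepatocyte, 16 endothelial, 5 macrophage and lymphocyte and 3 cholangiocyte genes. That fit filtered counts over the portal libraries only and tested 13768 genes. Schwann cell and glial transcripts summed to 30.16 to 56.82 TPM in PMSC-MF-7d and 51.82 to 83.23 TPM in PMSC, with none of 9 tested members higher and 6 lower. The part of such transcripts in the falls of the immune, complement and storage genes was not tested. Leaving out PMSC replicate 1 gave a log2 fold change of 4.54 for Ass1 and -6.03 for Pecam1. It was -9.68 for Alb without PMSC-MF-7d replicate 2.

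Mesothelial transcripts, by contrast, were split, with 6 of 13 higher and 6 lower and sums of 117.26 to 179.3 TPM in PMSC-MF-7d and 86.9 to 139.24 TPM in PMSC. Over all genes, 38.1% were higher and 39% lower. Upk1b, a uroplakin, had 33.7, 84.2, 53.8 and 64.04 CPM in PMSC-MF-7d, against 0.798, 0.253, 0.104 and 0 CPM in PMSC (7.61 ± 0.52, adjusted p = 6.2e-11). Upk3b was 46.9-fold (95% interval from counting, 16.1 to 228) higher, while Wt1, a transcription factor of mesothelium and mesenchyme, fell (-3.72 ± 0.44), and keratin gene Krt18 fell (-5.01 ± 0.94). Vascular smooth muscle and pericyte transcripts divided in the same way, 6 of 13 higher and 7 lower, and summed to 2636.86 to 3635.22 TPM in PMSC-MF-7d and 803.87 to 1040.13 TPM in PMSC. Cnn1, Actg2 and the proteoglycan gene Cspg4 (5.36 ± 0.65) were up. The channel genes Abcc9 and Kcnj8, which together form the potassium channel of pericytes, were down (-11.32 ± 0.44 and -7.8 ± 0.37), as was Rgs5 (-6.18 ± 0.33). Abcc9 had 0.652, 0.652, 0.183 and 0.778 CPM in PMSC-MF-7d, against 1645, 1742, 1039 and 1432 CPM in PMSC. Once PMSC replicate 1 was left out, the log2 fold change came to 8.9 for Upk1b. With PMSC-MF-7d replicate 1 left out it was -8.4 for Kcnj8. Without PMSC-MF-7d replicate 2 it was -6.03 for Krt18.

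Markers of the cells' origin were mostly lower. Of the portal fibroblast markers, 7 of 26 tested members were higher and 18 lower (median -3.26). Clec3b, tetranectin, had 0.869, 0.122, 0.147 and 0.283 CPM in PMSC-MF-7d, against 909.5, 1127, 1229 and 684 CPM in PMSC (-11.39 ± 0.45, adjusted p = 2.4e-14). Ntrk2, a neurotrophin receptor (-11.39 ± 0.37), and Entpd2, an ectonucleotidase (-7.82 ± 0.31), fell. Thy1, the surface glycoprotein that marks portal fibroblasts, was higher, with 481, 374, 498 and 627 CPM in PMSC-MF-7d, against 185, 111, 144 and 65.9 CPM in PMSC (1.97 ± 0.33, adjusted p = 2.6e-05), and so was N-cadherin (Cdh2, 3.26 ± 0.20). Slit2, an axon guidance ligand, was at 278, 59.8, 124 and 143 CPM in PMSC-MF-7d and 126, 123, 172 and 58.7 CPM in PMSC and was not called (0.34 ± 0.32, adjusted p = 0.35), but passed with library totals (0.81). Without PMSC-MF-7d replicate 1, the log2 fold change was -12.29 for Clec3b.

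Mesenchymal stem cell antigens had 6 of 18 higher and 11 lower (median -1.14). Cd34 had 26.9, 9.17, 8.21 and 13.3 CPM in PMSC-MF-7d, against 1162, 1339, 1519 and 1048 CPM in PMSC (-6.46 ± 0.33, adjusted p = 8.9e-13). The leptin receptor gene Lepr (-9.18 ± 0.54), Nt5e, encoding CD73 (-4.97 ± 0.30), Ly6a, encoding Sca-1 (-3.28 ± 0.34), and Eng, encoding CD105 (-1.16 ± 0.11), fell, while Nes, nestin (3.39 ± 0.23), and Mcam (3.1 ± 0.26) rose. Stellate cell markers had 2 of 26 higher and 24 lower (median -3.52). The collectin gene Colec11 had 0 to 1.19 CPM in PMSC-MF-7d and 125 to 257 CPM in PMSC (-8.03 ± 0.42), and Reln (-5.83 ± 0.37) and cytoglobin (Cygb, -7.34 ± 0.51) fell. Leaving out PMSC-MF-7d replicate 1 gave a log2 fold change of -7.94 for Cygb. It was -10.92 for Lepr without PMSC-MF-7d replicate 2.

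Transcription factors of the liver mesenchyme had 2 of 28 higher and 24 lower (median -1.44). Tcf21 had 5.03, 1.43, 4.07 and 4.67 CPM in PMSC-MF-7d, against 371, 367, 325 and 336 CPM in PMSC (-6.51 ± 0.28, adjusted p = 9.2e-14). Klf15 (-4.75 ± 0.31), Tbx20 (-3.1 ± 0.36) and Lhx2 (-2.63 ± 0.34) fell, whereas Hand2 stayed within 2-fold at 36.9 to 52.8 CPM in PMSC-MF-7d and 54.8 to 64.4 CPM in PMSC (-0.43 ± 0.15, or 0.035 with library totals). Hox genes, which keep positional identity, had 12 of 17 higher and 2 lower (median 1.74). Hoxb6 rose by 4.96 ± 0.67 and Hoxc4 by 3.83 ± 0.67, while Hoxa2 (-1.84 ± 0.25) and Hoxa5 (-0.6 ± 0.25, adjusted p = 0.032, groups overlapping) were lower. The call of Hoxa5 was lost with library totals (-0.14) and without PMSC-MF-7d replicate 2 (-0.39), among others. Oncofetal and imprinted growth genes had 7 of 20 higher and 8 lower (median -0.13). Over all genes 38.1% were higher and 39% lower, the background for this list and for the cartilage, bone and tendon list below. Beside Hmga2, the RNA-binding protein gene Igf2bp3 rose (6.79 ± 0.64) and Igf2bp1 was 433-fold (95% interval from counting, 77.8 to 17119.7) higher, and the growth factor Igf2 (-7.57 ± 0.30) and the imprinted genes Plagl1 (-3.66 ± 0.24) and Mest (-3.76 ± 0.21) fell. Regulators of cartilage, bone and tendon had 8 of 18 higher and 7 lower, with Msx2 (4.76 ± 0.70) and Runx2 (2.16 ± 0.20) up and Alpl (-7.52 ± 0.45) and Sox5 (-4.01 ± 0.29) down. Once PMSC replicate 2 was left out, the log2 fold change came to 7.75 for Igf2bp3. With PMSC replicate 4 left out it was 5.69 for Hoxb6. Msx2 had no count in PMSC without replicate 2, so its fitted value of 8.68 there does not measure the size of the rise.

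Genes of TGF-beta and BMP signalling were more often lower than higher. Of the TGF-beta list, 8 of 27 tested members were higher and 16 lower (median -0.8). The activin subunit gene Inhba had 494, 804, 647 and 562 CPM in PMSC-MF-7d, against 27.7, 29.2, 29.9 and 20.3 CPM in PMSC (4.55 ± 0.17, adjusted p = 1.2e-14), and its antagonist follistatin (Fst) rose by 2.19 ± 0.42. The receptor genes Tgfbr1 (-2.47 ± 0.11), Tgfbr2 (-2.69 ± 0.10) and Tgfbr3 (-4.35 ± 0.19) fell, and so did the repressor gene Skil (-3.17 ± 0.15). BMP ligands, receptors and antagonists had 4 of 23 higher and 18 lower (median -1.86). Gdf10 had 0.652, 0.204, 0.0367 and 0.247 CPM in PMSC-MF-7d, against 975, 1212, 742 and 731 CPM in PMSC (-11.61 ± 0.45, adjusted p = 1.8e-14), and the ligand genes Bmp5 (-8.82 ± 0.45) and Bmp2 (-7.48 ± 0.21) and the antagonist gene Chrdl1 (-10.01 ± 0.40) fell. Gremlin (Grem1), another antagonist, rose by 3.76 ± 0.32. Without PMSC replicate 3, the log2 fold change was 2.98 for Fst. Without PMSC-MF-7d replicate 1 it was -9.79 for Bmp5 and -12.38 for Gdf10.

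The Wnt list had 4 of 30 higher and 22 lower (median -2.2). The antagonist genes Sfrp1 (-6.1 ± 0.66), Sfrp4 (-6.04 ± 0.76) and Wif1 (-9.49 ± 0.89) and the enhancer gene Rspo1 (-6.74 ± 0.79) fell, and the target gene Axin2 fell with them (-5.49 ± 0.50). Lef1, a nuclear partner of beta-catenin, had 0.99 to 2.09 CPM in PMSC-MF-7d and no count in PMSC, and was at least 29.1-fold higher. Hedgehog genes had 5 of 21 higher and 16 lower (median -2.8). The target genes Gli1 (-8.47 ± 0.56) and Hhip (-6.44 ± 0.43) fell. Gli1 had 0.615, 0.245, 0.147 and 0.106 CPM in PMSC-MF-7d, against 126, 118, 87.2 and 72.9 CPM in PMSC. Notch genes had 2 of 16 higher and 10 lower (median -2.03), among them the target genes Heyl (-9.47 ± 0.39) and Hey1 (-3.4 ± 0.37) and the receptor gene Notch3 (-3.07 ± 0.39). The higher Notch members numbered 4 with library totals, and 1 by DESeq2 and without PMSC replicate 1, PMSC replicate 3 or PMSC-MF-7d replicate 4. Notch3 averaged 202 CPM in PMSC, 2.7 on day 3 and 23.97 on day 7. Leaving out PMSC replicate 1 gave a log2 fold change of -8.87 for Wif1. It was -6.54 for Axin2, -9.2 for Gli1, -8.76 for Rspo1, -7.51 for Sfrp1, -6.83 for Sfrp4 and -10.21 for Wif1 without PMSC-MF-7d replicate 1.

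Growth factor ligands and receptor tyrosine kinases had 5 of 36 higher and 29 lower (median -2.13). The IGF-binding protein genes moved apart: Igfbp2 had 329.8, 538, 401 and 495 CPM in PMSC-MF-7d, against 3.19, 3.22, 0.94 and 1.51 CPM in PMSC (7.58 ± 0.45, adjusted p = 8.5e-12), and Igfbp3 had 14.5, 3.34, 2.97 and 3.57 CPM in PMSC-MF-7d, against 3409.9, 3115, 2256 and 3495 CPM in PMSC (-8.97 ± 0.50, adjusted p = 3.1e-12). Pdgfra, a receptor of fibroblasts, fell (-1.74 ± 0.18), and Met, the receptor of hepatocyte growth factor, rose by 2.31 ± 0.36 while its ligand gene Hgf fell (-3.02 ± 0.32). Slit, Robo, semaphorin and netrin genes had 9 of 25 higher and 12 lower (median -0.25), beside 38.1% higher and 39% lower over all genes. Sema3e (3.75 ± 0.40) and Sema3a (2.98 ± 0.18) were up, and Sema3b (-4.98 ± 0.39), Ntn1 (-4.19 ± 0.21) and Slit3 (-3.49 ± 0.51) were down. Robo3 had no count in PMSC and was at least 13.1-fold higher. Once PMSC replicate 3 was left out, the log2 fold change came to 4.5 for Sema3e. With PMSC-MF-7d replicate 1 left out it was -9.83 for Igfbp3 and -4.27 for Slit3.

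A gene was counted as at the fresh level on day 7 when the 95% interval of its log2 fold change lay within -1 and 1 and it had at least 5 CPM in PMSC-MF-7d or PMSC. This held for 4537 of 14751 genes (30.8%), of which 2681 were also called as different by a smaller amount. A further 1536 genes were neither called nor counted as at the fresh level. Their interval reached beyond 2-fold or they lay under 5 CPM in both groups, and no change is claimed for them. The lists with the largest such shares were the cytosolic ribosomal proteins (43 of 46), respiratory chain subunits (23 of 30), secretory pathway genes (15 of 28), ribosome biogenesis factors (11 of 22) and lysosome genes (11 of 24). Of all genes at the fresh level, 3540 (24% of those tested) had also been within 2-fold on day 3, and these are called stayed. Day 3 and day 7 share their fresh libraries, so the classes are descriptions of 1 course and not independent comparisons.

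The stayed genes with the highest TPM were translation factors, ribosomal proteins and structural genes. Eef1a1, the factor that brings transfer RNA to the ribosome, had 7001, 6367, 6421 and 6857 CPM in PMSC-MF-7d, against 7228, 6989, 6283 and 5687 CPM in PMSC (0.025 ± 0.08, adjusted p = 0.78). Vimentin (Vim), the intermediate filament of mesenchymal cells, had 4699.8, 4848, 4857 and 4977 CPM in PMSC-MF-7d, against 5776, 5194, 5569 and 5743 CPM in PMSC (-0.2 ± 0.11, adjusted p = 0.094). The matricellular gene Sparc had 5774, 5122, 5505 and 6394 CPM in PMSC-MF-7d, against 5178, 4385, 4780.4 and 5441 CPM in PMSC (0.2 ± 0.10, adjusted p = 0.059). Tmsb4x, which binds actin monomers, was higher by a small amount (0.47 ± 0.14, adjusted p = 0.0039), and the log2 fold changes of Rplp1, Rplp2, Rps12 and Rps26 lay between -0.41 and 0.037. With library totals Eef1a1 (0.49), Sparc (0.66) and Vim (0.26) passed the threshold as higher, and Rplp1, Rplp2 and Rps12 moved to 0.045, 0.16 and 0.084. Without PMSC replicate 2 Tmsb4x was at 0.31 and not called. The interval of Eef1a1 ran from -0.14 to 0.19 and that of Vim from -0.43 to 0.023 on the log2 scale.

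Ribosomal proteins had 2 of 46 higher and 25 lower at a median of -0.23, and 41 of 46 stayed. Their direction depended on the scale: with library totals 21 were higher and 2 lower, and by limma on log2(TPM + 1) 26 and 5. Their share of TPM was 11.3% to 12.8% in PMSC-MF-7d and 9.77% to 12.9% in PMSC. Between PMSC-MF-7d and PMSC-MF-3d, a comparison with 36% of genes called (18.6% higher and 17.4% lower), 40 of the 46 ribosomal proteins fell, at a median of -0.37, and all 22 ribosome biogenesis factors fell, at a median of -0.76. Against fresh cells, 11 of the 22 biogenesis factors were higher and 6 lower at day 7. Nop58, a nucleolar core protein, fell (-2.65 ± 0.13), and Wdr12 (2.15 ± 0.18) and Utp20 (1.56 ± 0.14) rose.

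Genes of the secretory pathway were also close to fresh cells, with 14 of 28 stayed. Of the 28 secretory pathway genes, 13 were higher and 11 lower, beside 38.1% and 39% over all genes. With library totals, as by limma on log2(TPM + 1), 17 were higher and 6 lower. Dnajb9 (-3.0 ± 0.09) and Herpud1 (-1.57 ± 0.12), which serve the unfolded protein response, fell, and Sec23a, a coat protein of vesicles that leave the endoplasmic reticulum, rose (1.41 ± 0.08).

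A return was counted where a gene differed at least 2-fold on day 3 and was at the fresh level on day 7. This held for 425 genes (2.88%), 210 of them up on day 3 and 215 down. Between PMSC-MF-3d and PMSC 78.3% of genes were called, 37.2% higher and 41.1% lower. That share has no bound on size or level, unlike the count of returns. Prdx1, a peroxiredoxin, which reduces peroxides, had the largest named transient rise. It averaged 436 ± 29.3 CPM in PMSC, 3400.1 ± 289 on day 3 and 627 ± 96.3 on day 7 (SD, n = 4 each). Its log2 fold change against PMSC was 2.96 ± 0.11 on day 3 and 0.52 ± 0.10 on day 7 (adjusted p = 1.1e-14 and 0.00015). Srxn1, sulfiredoxin, which reactivates peroxiredoxins, averaged 212 ± 46.5, 815 ± 60.8 and 151 ± 25.3 CPM at these 3 times, and Prdx6 198 ± 43.8, 741 ± 34.9 and 189 ± 37.05 CPM. The day 7 and fresh libraries overlapped for Srxn1 and Prdx6 and did not for Prdx1. With library totals the day 7 change of Srxn1 was -0.028 and not called.

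The antioxidant list as a whole had 13 of 26 members up and 8 down on day 3, and 10 up and 14 down on day 7, with 20 of 26 falling between the cultured times. Over all genes, 37.2% were up and 41.1% down on day 3, and 38.1% up and 39% down on day 7. Between the cultured times 17.4% of all genes fell. Nqo1, a quinone reductase and a standard NRF2 target, averaged 4.51 ± 0.894 CPM in PMSC, 646 ± 40.7 on day 3 and 261 ± 38.4 on day 7, so it stayed high. Metallothioneins Mt1 and Mt2 and the secreted peroxidase gene Gpx3 (-5.72 ± 0.34) fell and did not return. The antioxidant response element, searched as TGACNNNGC on both strands, stood in 29.6% of the list's promoters and 12.4% of all. The promoter of Prdx1 (chr4:116685349-116685648, plus strand) is shown for its transient course, with the match, on the other strand, in capitals.
Prdx1: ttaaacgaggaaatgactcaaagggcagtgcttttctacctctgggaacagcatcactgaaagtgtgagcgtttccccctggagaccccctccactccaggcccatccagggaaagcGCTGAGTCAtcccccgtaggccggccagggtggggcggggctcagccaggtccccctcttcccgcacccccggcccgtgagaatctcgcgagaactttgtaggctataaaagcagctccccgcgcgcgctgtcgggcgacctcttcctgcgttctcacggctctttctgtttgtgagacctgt

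The other named transient rises were of Smurf2, a ubiquitin ligase of TGF-beta signalling, Polr1b, a subunit of RNA polymerase I, and Slc25a5, a mitochondrial ADP/ATP carrier. Smurf2 averaged 143 ± 6.93, 582 ± 27.2 and 252 ± 27.1 CPM in PMSC, on day 3 and on day 7, and Slc25a5 205 ± 39.2, 657 ± 30.5 and 303 ± 18.7 CPM. Transient falls included the integrin gene Itga1, a collagen receptor subunit, which averaged 84.6 ± 30.9 CPM in PMSC, 18.7 ± 1.21 on day 3 and 83.8 ± 14.2 on day 7. Its log2 fold change was -2.18 ± 0.21 on day 3 (adjusted p = 1e-08) and -0.019 ± 0.20 on day 7 (adjusted p = 0.94), or 0.45 and called on day 7 with library totals. Synpo, an actin-organising protein, averaged 140.2 ± 17.9, 29.04 ± 6.63 and 102 ± 27.3 CPM, and Mtss1, Mrgprf, Ctnnal1 and Adamtsl4 followed like courses, with day 3 changes of -2.48, -2.58, -2.27 and -2.71. A return means an interval within 2-fold, so smaller day 7 differences could remain. Smurf2 and Slc25a5 still averaged more than in PMSC. Polr1b (0.43), Synpo (-0.47), Ctnnal1 (-0.59) and Adamtsl4 (-0.64) were still called on day 7, and Mtss1, Mrgprf and Itga1 were not. Without PMSC-MF-7d replicate 1, 317 genes returned.

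Late changes, within 2-fold of fresh cells on day 3 and at least 2-fold away on day 7, were found for 229 genes (1.55%), 152 up and 77 down. By limma on log2(TPM + 1) there were 351. Components of caveolae, the small pits of the plasma membrane, were among the late rises. Cav1, caveolin, averaged 108 ± 15.4 CPM in PMSC, 151 ± 25.2 on day 3 and 533 ± 23.4 on day 7, with changes against PMSC of 0.47 ± 0.14 and 2.3 ± 0.15 (adjusted p = 0.0045 and 2e-11). Cavin2, a coat protein of caveolae, averaged 91.8 ± 17.6, 104 ± 16.9 and 448 ± 128 CPM. Gata2, a zinc finger factor, rose by 2.37 ± 0.22 at day 7 after 0.54 ± 0.22 on day 3, and Kif26b and St3gal5 by 3.12 and 2.41 at day 7. The lymphangiogenic factor gene Vegfc was the largest late fall, at 175 ± 43.6, 138 ± 15.9 and 26.2 ± 9.23 CPM in PMSC, on day 3 and on day 7. Pi15, Osgin1, Kctd11, Srpx2 and Ngef fell late too, with day 7 changes between -2.46 and -1.74.

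**Figure D5:**
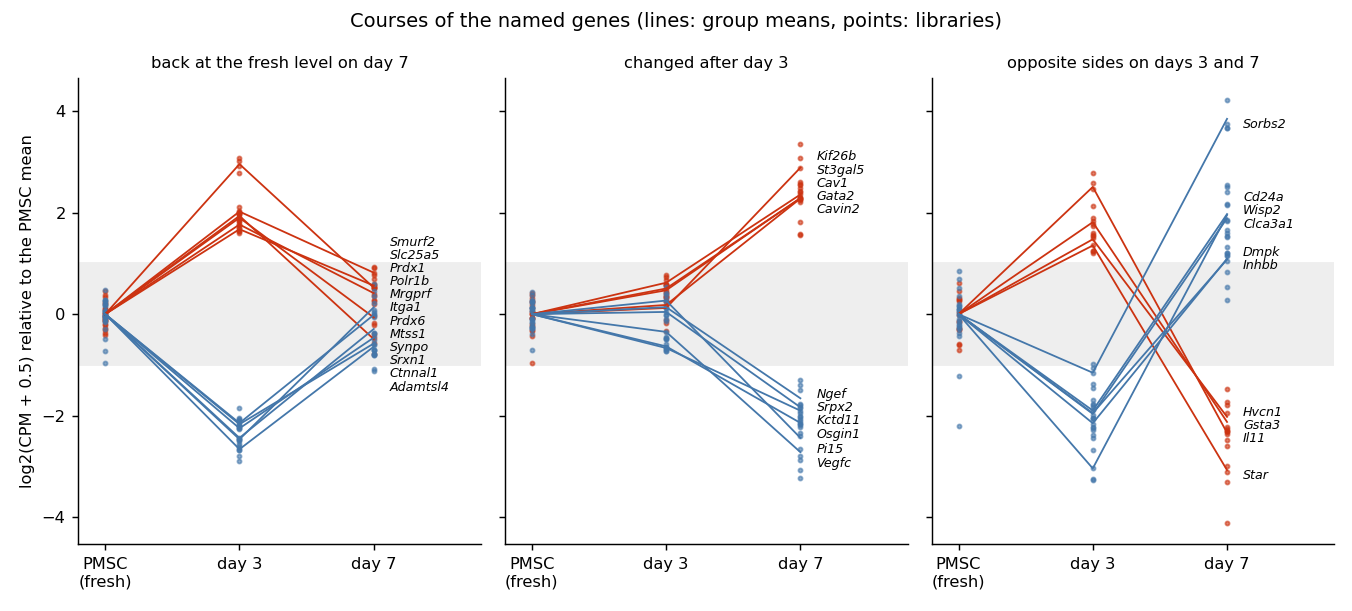
Courses of the named genes that returned to the fresh level, changed after day 3, or stood on opposite sides of fresh cells on days 3 and 7, as log2(CPM + 0.5) relative to the PMSC mean. Lines join group means, points are libraries, and the grey band spans -1 to 1; Prdx1 peaks on day 3, Cav1 leaves the band only on day 7, and Sorbs2 and Star cross it in opposite directions.

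Opposite changes of at least 2-fold on day 3 and day 7 were called for 19 genes (0.129%), 13 of them above fresh cells at day 7 and 6 below. By limma on log2(TPM + 1) there were 12. Il11, a cytokine that acts on fibroblasts, averaged 30.3 ± 10.8 CPM in PMSC, 175 ± 32.04 on day 3 and 5.59 ± 2.08 on day 7. Its changes against PMSC were 2.53 ± 0.32 on day 3 (adjusted p = 5.6e-07) and -2.45 ± 0.34 on day 7 (adjusted p = 1.8e-06). Star, which carries cholesterol into mitochondria, averaged 42.95 ± 16.6, 111 ± 11.3 and 4.65 ± 2.62 CPM, and Gsta3 and Hvcn1, a glutathione transferase and a proton channel, crossed in the same direction. Wisp2, a connective tissue growth factor relative, crossed upward, with 65.95 ± 7.89, 7.56 ± 1.61 and 257 ± 137 CPM in that order, and its log2 changes were -3.13 ± 0.33 and 1.96 ± 0.31 (adjusted p = 2e-07 and 2.1e-05). Sorbs2, an adaptor of actin and adhesion proteins, had the largest day 7 rise of the group (4.06 ± 0.43), and Cd24a, Clca3a1, Dmpk and Inhbb rose by 2.03, 1.9, 1.1 and 1.11 after falling on day 3.

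For the 4 genes that mark the day 7 portal cells, the change was set against that of cultured stellate cells in the same fit, where the difference of the portal and stellate changes was called for 60.6% of all genes. Acta2 rose by 5.0 ± 0.22 in portal cells and by 8.57 ± 0.26 in stellate cells, a difference of -3.57 ± 0.28 (adjusted p = 2.1e-09). It averaged 6059.6 ± 398 CPM in PMSC-MF-7d and 189.8 ± 60.2 in PMSC, and 3218 ± 372 CPM in HSC-MF-7d and 8.46 ± 2.87 in HSC. The fresh portal cells were thus the higher fresh group and PMSC-MF-7d the higher cultured group. Actg2 differed in the same way, by -3.76 ± 0.60 (adjusted p = 2e-05). For Cemip the difference was 0.44 ± 1.06 (adjusted p = 0.76) and for Tll1 -1.28 ± 0.97 (adjusted p = 0.27), so unequal changes were not resolved for these genes. Both were near 0 in fresh stellate cells, at 0.149 ± 0.298 and 0.119 ± 0.238 CPM. HSC replicate 2, the only fresh stellate library with a count of either gene, decided both values. Without it the difference was -4.23 for Cemip and -5.63 for Tll1, and that of Tll1 passed the threshold. Those fits had no count in fresh stellate cells, so the values do not measure the size of a difference. By limma on log2(TPM + 1) the difference for Cemip was 3.46 and passed it too, that of Actg2 was -1.1 and passed it, and that of Tll1 was 0.088. The label of HSC-MF-7d leaves its time uncertain, and time and cell type cannot be told apart in these differences.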

How the data were processed

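RNA of 20 mouse liver cell libraries, 4 per group, was sequenced from stranded mRNA libraries, per the labels' protocols. STAR 2.5.3a and RSEM 1.2.28 with mm10 are named in the submitters' processing notes, beside FastQC and Trimmomatic; the sources do not say whether counting used strand. The authors deposited per library a table of RSEM expected counts, TPM and FPKM by gene symbol, per the file headers; TPM served for shares and levels between genes, and the deposited FPKM was not used.

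The rounded expected counts went into edgeR 4.0.16 (R 4.3.3; trimmed-mean scaling, filterByExpr, robust quasi-likelihood fit over 5 groups, Benjamini-Hochberg adjustment, threshold 0.05). Standard errors are the log2 fold change over the square root of F. A fold against a group with no count uses a floor of 3 counts over its 4 libraries (0.0520 CPM in PMSC, 0.0279 in PMSC-MF-7d) and is a lower bound; with 1 to 3 counts it has a 95% counting interval. Both cover counting error only. Summed expected counts were 11810532 to 26675589 over the 12 portal libraries. In simulated counts of 14479 genes, only 67, 67 and 66 genes were changed by 1.5-fold, 2-fold and 4-fold, and the others were kept equal. Of these changes 31.3%, 73.1% and 87.9% were recovered, with 3.03% false calls. In the data 77% of genes were called, so these rates do not carry over to the comparison itself.

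Named are the 8 largest rises and falls between groups that did not overlap and reached 20 CPM, the 8 largest gains and losses of TPM, the 4 label genes, up to 4 called members per list with at least 10 CPM, up to 6 genes per direction of each course, and 8 stayed genes; other list members were chosen after their values were seen. Some genes that this rule names are not reported here. The comparison and its 51 gene lists were chosen with earlier results of these data known. Alternatives were other scalings, DESeq2 1.42.0, limma 3.58.1 on log2(TPM + 1), no filter, fewer groups, a replicate block and each library left out. Promoters are RefSeq sequences of GRCm38.p6, to which 14464 symbols (98.1%) were matched.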

Additional observations from a re-analysis of the deposited data

Results flagged for a closer look

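A library was picked out where it lay far from the other 3 of its group, by Dixon's ratio of its gap to the group's range. Over 306 printed genes and 3 portal groups, 86 of 918 groups of 4 libraries held such a library. Chance gives about 1 in 20 only where values are normally distributed. Where the other libraries of a group had no count, any count in the remaining library was picked out. Ccl17, Crct1 and Igf2bp1 in PMSC replicate 2 were among these cases, so an excess over chance was not shown. Values are CPM, and their cause was not tested.

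PMSC replicate 1 lay above the others for Bmp2 (208) and Lrp2 (0.20). PMSC replicate 1 lay below the others for Tgfbr3 (519.5). PMSC replicate 2 lay above the others for Bhlhe40 (1410.3), C3ar1 (0.189), Ccl17 (0.0631), Crct1 (0.0631) and Gbp5 (133). The same held for Ifit2 (44.2), Igf2bp1 (0.0631), Lox (1068), Msln (0.253) and Msx2 (0.316). It also held for Nt5e (37.7), Skil (1095), Tll1 (0.821) and Upk3b (0.189). PMSC replicate 3 lay above the others for Col8a1 (187), Cspg4 (11.7), Has2 (98.6), Hoxb7 (0.836) and Sema3e (6.16). PMSC replicate 3 lay below the others for Fabp5 (3.24). PMSC replicate 4 lay above the others for Col3a1 (14095), Myocd (10.6) and Postn (566). PMSC replicate 4 lay below the others for Sparcl1 (1216).

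PMSC-MF-3d replicate 1 lay above the others for Col8a1 (401), Herpud1 (92.99), Hoxb7 (1.56), Hoxc4 (5.17) and Mthfd2 (113). The same held for Tes (74.3). PMSC-MF-3d replicate 1 lay below the others for Apoe (7.69), C4b (5.02), Dcn (218) and Mmp3 (42.1). PMSC-MF-3d replicate 2 lay above the others for Lama2 (279.9), Mest (34.2), Sox5 (4.95) and Tgfbr2 (103). PMSC-MF-3d replicate 2 lay below the others for Cygb (5.81), Ntn1 (50.6) and Pparg (2.7). PMSC-MF-3d replicate 3 lay above the others for Gbp5 (0.0367) and Gdf10 (5.8). PMSC-MF-3d replicate 3 lay below the others for B2m (186). PMSC-MF-3d replicate 4 lay above the others for Lepr (0.715) and Lrat (0.0376).

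PMSC-MF-7d replicate 1 lay above the others for Adamts15 (1.63), Axin2 (1.3), C4b (11.1), Cdkn1c (1.56) and Gas1 (30.7). The same held for Hmmr (77.7), Igfbp3 (14.5), Inmt (0.29), Itga8 (48.2) and Ltbp4 (108). It also held for Lum (17.99), Mtss1 (130.2), Olfml1 (0.0724), Rspo1 (0.905) and Sfrp1 (70.4). It also held for Slc38a2 (625), Sqle (66.1) and Tgfbi (8.47). PMSC-MF-7d replicate 1 lay below the others for Cdkn1a (306) and Ctgf (2313). PMSC-MF-7d replicate 2 lay above the others for Alb (1.3), Atf3 (5.5), C6 (0.0408), Cd36 (0.122) and Gsn (509). The same held for Igf2 (0.938), Lepr (0.897), Slc25a5 (332), Sorbs2 (42.8) and Vtn (0.122). It also held for Wdr12 (44.3). PMSC-MF-7d replicate 2 lay below the others for Cspg4 (149), Dmpk (269), Hoxa2 (4.49) and Pxn (50.6). PMSC-MF-7d replicate 4 lay above the others for Atf4 (225). PMSC-MF-7d replicate 4 lay below the others for Tnfaip6 (3.18).

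The change of Acta2 in portal cells was smaller than that in stellate cells, by a test of the difference itself (-3.57 on the log2 scale, edgeR adjusted p = 2.1e-09), and so was that of Actg2 (-3.76, adjusted p = 2e-05). The cultured stellate cells' time is given as 7 days by the titles and 3 days by the series description.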

How the results depend on the processing

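Scale bore most on the direction of small changes. Of all calls, 49.4% were higher genes with trimmed means, 63.5% with library totals, 65.2% by limma on log2(TPM + 1), 46% with DESeq2 size factors and 46.3% by DESeq2. By limma 351 genes changed late and 12 crossed. In a fit of the 8 compared libraries alone, 5004 genes were higher and 5052 lower. Against a bound of 2-fold in the test itself (glmTreat), 2355 genes were higher and 3374 lower, and with a bound of 1.5-fold 2072 genes were at the fresh level. Leaving out 1 library gave 5163 to 5711 higher and 5506 to 5859 lower genes, 4295 to 4618 at the fresh level, 3418 to 3570 stayed, 317 (without PMSC-MF-7d replicate 1) to 465 returned, 196 to 246 late and 17 to 24 crossed. With 1 library left out, the difference from stellate cells ranged from -3.82 to -3.34 for Acta2, -4.26 to -3.36 for Actg2, -4.23 to 0.89 for Cemip and -5.63 to -0.37 for Tll1. The lowest values for Cemip and Tll1 came without HSC replicate 2, where fresh stellate cells had no count, and do not measure a size. With library totals the difference was -3.25, -3.43, 0.78 and -0.94 for Acta2, Actg2, Cemip and Tll1. By limma it was -3.04, -1.1, 3.46 and 0.088 in that order. These alternatives were chosen after seeing the data. With library totals and by limma, small negative changes turned to 0.035 and 0.039 for Hand2, 0.070 and 0.084 for Yap1, 0.045 and 0.079 for Rplp1, 0.16 and 0.19 for Rplp2, 0.084 and 0.11 for Rps12, and, with totals, 0.0025 for Synpo. In small lists, clock genes had 1 higher member with totals and 2 by limma, elastic fibre genes had 4 higher with totals, Schwann cell and glial genes had 1 higher and 3 lower with totals, and the liver mesenchyme factors had none higher without PMSC replicate 2. The cause of these moves was not tested.

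The labels do not say whether replicate numbers pair the samples. Deviations of same-numbered PMSC-MF-7d and PMSC libraries correlated at 0.00969, 0.045, 0.0208 and -0.0211. Those of same-numbered PMSC-MF-7d and PMSC-MF-3d libraries correlated at 0.122, 0.1, 0.00243 and 0.0885. For PMSC-MF-7d replicates 1, 2 and 4 the same number gave the highest value, while replicate 3 correlated more with other numbers than with its own. A shared origin of same-numbered cultured libraries was not tested. Those of PMSC-MF-3d and PMSC correlated at -0.026, -0.0073, -0.0276 and -0.0381. A fit with the replicate number as a block gave 5435 higher, 5165 lower and 4387 genes at the fresh level.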
